A study of Mus musculus with 17 samples.

Results

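The 14-3-3 genes were followed through a dilution and amplification series of adult mouse cortex mRNA. The array annotation gives 30 probe sets the single symbol of 1 of 6 members, among 45037 non-control probe sets on the array. Ywhab (14-3-3 beta) has 6 of them, Ywhae (epsilon) 4, Ywhag (gamma) 4, Ywhah (eta) 1, Ywhaq (theta) 8 and Ywhaz (zeta) 7. The rule reads the gene symbol alone and no measured value. All 30 probe sets were kept, none was removed for a low value, and each gene was represented by its probe set with the highest mean over all arrays.

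Cortex mRNA of adult female C57BL/6 mouse, of strain C57/BL6 on the labels, was measured on 17 Affymetrix Mouse 430.2 arrays, and all of it came from 1 preparation. The bulk group is 1 array of 5 µg mRNA that received no amplification. The other 16 arrays hold aliquots of the same mRNA diluted to 10, 1 or 0.1 pg and amplified by antisense RNA (aRNA) synthesis, which copies mRNA to cDNA and transcribes it with T7 RNA polymerase. After 2 rounds there was 1 array at 10 pg and there were 3 each at 1 and 0.1 pg, and after 4 rounds there were 3 arrays at each of the 3 inputs. The methods do not say whether the final labelling amplification counts as a round. Because each replicate array is a new amplification of that 1 RNA, every SD, standard error and p-value here measures the spread between amplifications, not between animals, and the number of arrays limits the precision.

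14-3-3 proteins are small acidic adaptor proteins that work as homodimers and heterodimers. Each dimer holds its clients through phosphorylated serine or threonine motifs, and in this way keeps them in the cytoplasm, blocks an enzyme's active state or shields a phosphate from removal. They are among the abundant soluble proteins of brain, where clients include kinases, ion channels, tyrosine and tryptophan hydroxylases and the tau protein. The gamma and eta forms are known for high expression in neurons, epsilon for its part in neuronal migration together with Ndel1 and Lis1, and Sfn (14-3-3 sigma), the remaining gene of the family, for epithelial cells.

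All levels below are log2 values relative to the median of their own array, after each array was scaled to a common 10th to 90th percentile range. A level of 0 is therefore the array median, and a difference of 1 is a doubling of the scaled signal. The centering also holds the median difference over all probe sets near 0 in every comparison, so that reference is set by the scaling. Fold differences are taken between arrays for 1 probe set. Ranks among the probe sets or genes of 1 array are given only as descriptions, since probe sets differ in how strongly they bind. The suffix of a probe set says how specific its probes are. Of the 30, 5 end in _at (probes unique to 1 transcript) and 9 in _a_at (probes shared by transcripts of 1 gene). A further 5 end in _s_at and 11 in _x_at, whose probes also match or resemble other sequences, so the values of these 16 may hold signal from related sequences. The family's coding sequences are alike, and 4 of the 6 representatives (Ywhab, Ywhae, Ywhag and Ywhaq) are _x_at probe sets.

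**Figure D1:**
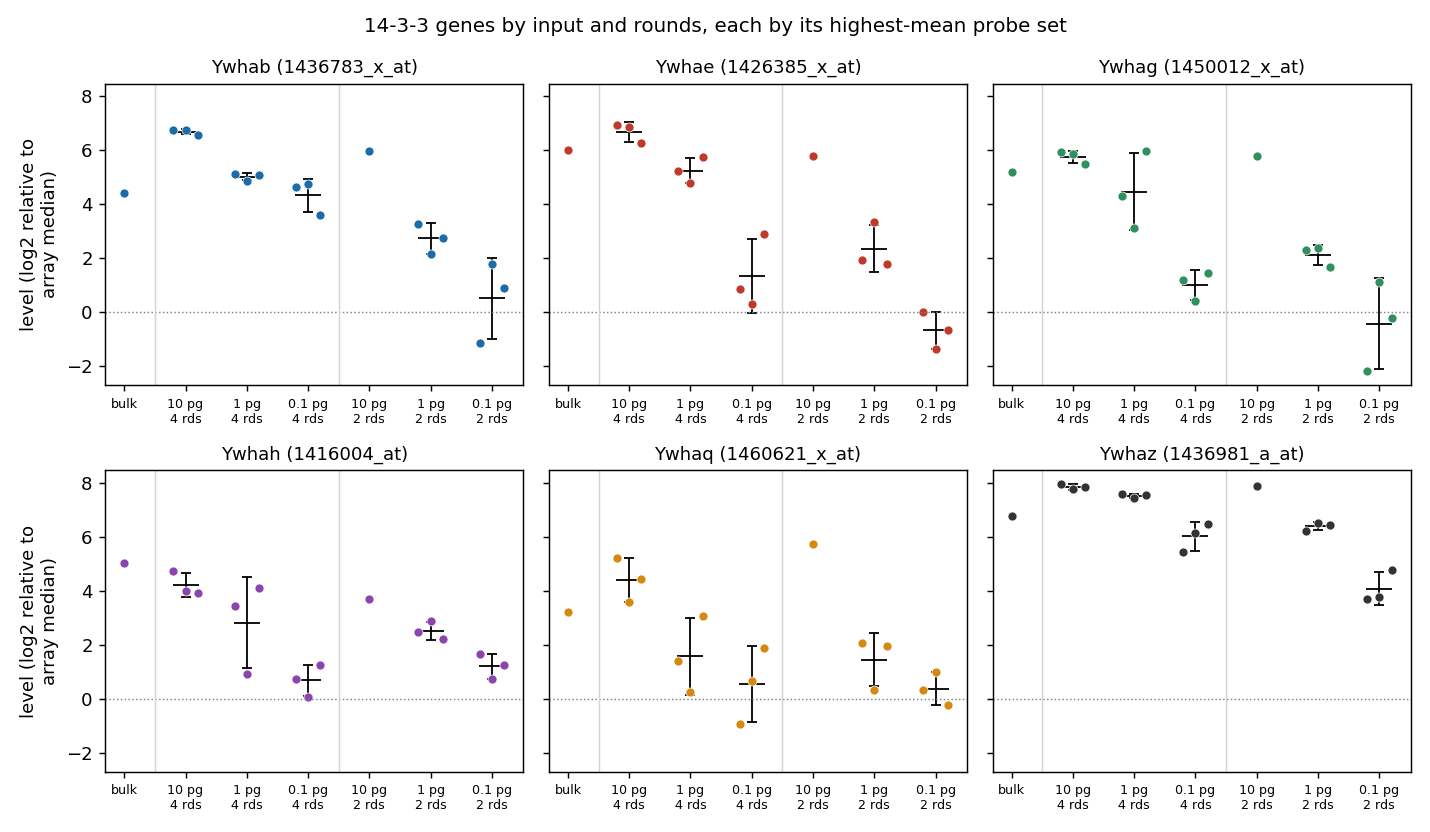
Level of each 14-3-3 gene's representative probe set (y axis, log2 relative to the array median) in the 7 groups of input and rounds (x axis, rds is rounds). Points are arrays, the horizontal bar is the mean and the whiskers are 1 SD where a group has 3 arrays. For all 6 genes each of the 3 arrays of 0.1 pg after 4 rounds lies below each of the 3 arrays of 10 pg after 4 rounds, and all 6 arrays of 0.1 pg read Ywhaz above the array median, from 3.69 to 6.47.

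Before amplification the neuron, astrocyte and oligodendrocyte marker lists read above the list of other tissues by their medians. Of 7 neuron markers measured, 6 were above the 90th percentile of genes on the bulk array and the list's median percentile was 91.5. The median was 88.7 for 5 astrocyte markers, 70.4 for 4 oligodendrocyte markers and 43.7 for 4 microglia markers, against 17.7 for 5 markers of other tissues. It was 58.9 for 3 vascular and 27.7 for 3 choroid plexus markers. Members of a list disagreed, such as Cx3cr1 at 97.9 and C1qb at 15.0 for microglia. Gfap of astrocytes stood at 29.9, Mog of oligodendrocytes at 9.50 and Ckm of other tissues at 80.5. Among the 14-3-3 probe sets, 14 of 30 were in the top 5% of all probe sets on the bulk array.

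By its representative probe set, Ywhaz was far above the array median in every group. It is the zeta form, a widely used partner of kinases and apoptosis regulators. Some of its other probe sets were not. The mean of 1416102_at was -1.17 at 1 pg after 2 rounds, and -1.29 at 1 pg and -0.59 at 0.1 pg after 4 rounds. That of 1448218_s_at at 0.1 pg was -0.41 after 2 rounds and -0.08 after 4. The representative of Ywhaz, 1436981_a_at, read 6.77 on the bulk array. It read 7.87 on the array of 10 pg after 2 rounds, 6.22, 6.49 and 6.45 at 1 pg, and 3.69, 3.77 and 4.76 at 0.1 pg. After 4 rounds it read 7.95, 7.75 and 7.82 at 10 pg, 7.58, 7.43 and 7.53 at 1 pg, and 5.42, 6.12 and 6.47 at 0.1 pg. The 10 pg and 1 pg arrays after 4 rounds were all above bulk and the 0.1 pg arrays all below it. Of the 17 arrays, 15 had this probe set in their top 5%. The order of its group means was 10 pg after 2 rounds, 10 pg after 4 rounds, 1 pg after 4 rounds, bulk, 1 pg after 2 rounds, 0.1 pg after 4 rounds and 0.1 pg after 2 rounds. The arrays overlapped between the first pair in that order and between 1 pg after 2 rounds and 0.1 pg after 4 rounds.

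By its representative, Ywhab, the beta form, which binds the RAF kinases, reached higher readings after amplification of 10 pg than in bulk. Its representative 1436783_x_at read 4.39 in bulk and 5.97 on the array of 10 pg after 2 rounds. After 4 rounds it read 6.74, 6.73 and 6.57 at 10 pg, 5.10, 4.85 and 5.05 at 1 pg, and 4.62, 4.72 and 3.60 at 0.1 pg. After 2 rounds it read 3.26, 2.14 and 2.75 at 1 pg and -1.15, 1.78 and 0.87 at 0.1 pg. The 3 arrays of 0.1 pg after 2 rounds were the lowest of all 17, 1 of them below the array median. In the order of group means only bulk, at 4.39, and 0.1 pg after 4 rounds, at 4.31 ± 0.621 (SD, n = 3), overlapped with a neighbour.

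By its representative, Ywhae, the epsilon form, whose deletion disturbs neuronal migration, was far above the array median at 10 pg. Its arrays of 0.1 pg ran from -1.38 to 2.88. Its representative 1426385_x_at read 5.99 in bulk and 5.79 at 10 pg after 2 rounds. After 4 rounds it read 6.91, 6.84 and 6.24 at 10 pg, 5.21, 4.77 and 5.72 at 1 pg, and 0.84, 0.29 and 2.88 at 0.1 pg. After 2 rounds it read 1.92, 3.33 and 1.78 at 1 pg and 0.00, -1.38 and -0.68 at 0.1 pg. All 3 arrays of 0.1 pg after 2 rounds were at or below the array median, and those of 0.1 pg after 4 rounds overlapped only with 1 pg after 2 rounds.

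Ywhag, the gamma form, read 5.18 in bulk and 5.78 at 10 pg after 2 rounds with 1450012_x_at. After 4 rounds it read 5.90, 5.83 and 5.48 at 10 pg, 4.30, 3.11 and 5.95 at 1 pg, and 1.16, 0.38 and 1.44 at 0.1 pg. After 2 rounds it read 2.27, 2.35 and 1.68 at 1 pg and -2.21, 1.12 and -0.23 at 0.1 pg. One of the 1 pg arrays after 4 rounds matched the 10 pg arrays, and the other 2 were below all of them. The 0.1 pg arrays after 2 and 4 rounds overlapped.

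Ywhah, the eta form, has 1 probe set, 1416004_at, with probes unique to 1 transcript, and bulk was its highest array, at 5.02. It read 3.70 at 10 pg after 2 rounds, 2.46, 2.88 and 2.21 at 1 pg, and 1.64, 0.71 and 1.26 at 0.1 pg. After 4 rounds it read 4.71, 3.99 and 3.91 at 10 pg, 3.42, 0.91 and 4.10 at 1 pg, and 0.72, 0.06 and 1.23 at 0.1 pg. The 1 pg arrays after 4 rounds spread over more than 3 log2 units and overlapped with every amplified group.

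Ywhaq, the theta form (also called tau), varied widely between amplifications. Its representative 1460621_x_at read 3.20 in bulk and 5.74 at 10 pg after 2 rounds. After 4 rounds it read 5.19, 3.58 and 4.44 at 10 pg, 1.38, 0.23 and 3.08 at 1 pg, and -0.94, 0.64 and 1.89 at 0.1 pg. After 2 rounds it read 2.07, 0.32 and 1.95 at 1 pg and 0.30, 0.99 and -0.23 at 0.1 pg. The 4 groups of 1 and 0.1 pg each overlapped with their neighbour in the order of means. Its other probe sets did not share the high readings at 10 pg after 4 rounds. Each was below bulk there, with differences of the means from -3.86 to -1.19. On the array of 10 pg after 2 rounds 1420830_x_at and 1436846_x_at were also above bulk, and the rest were below it.

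**Figure D2:**
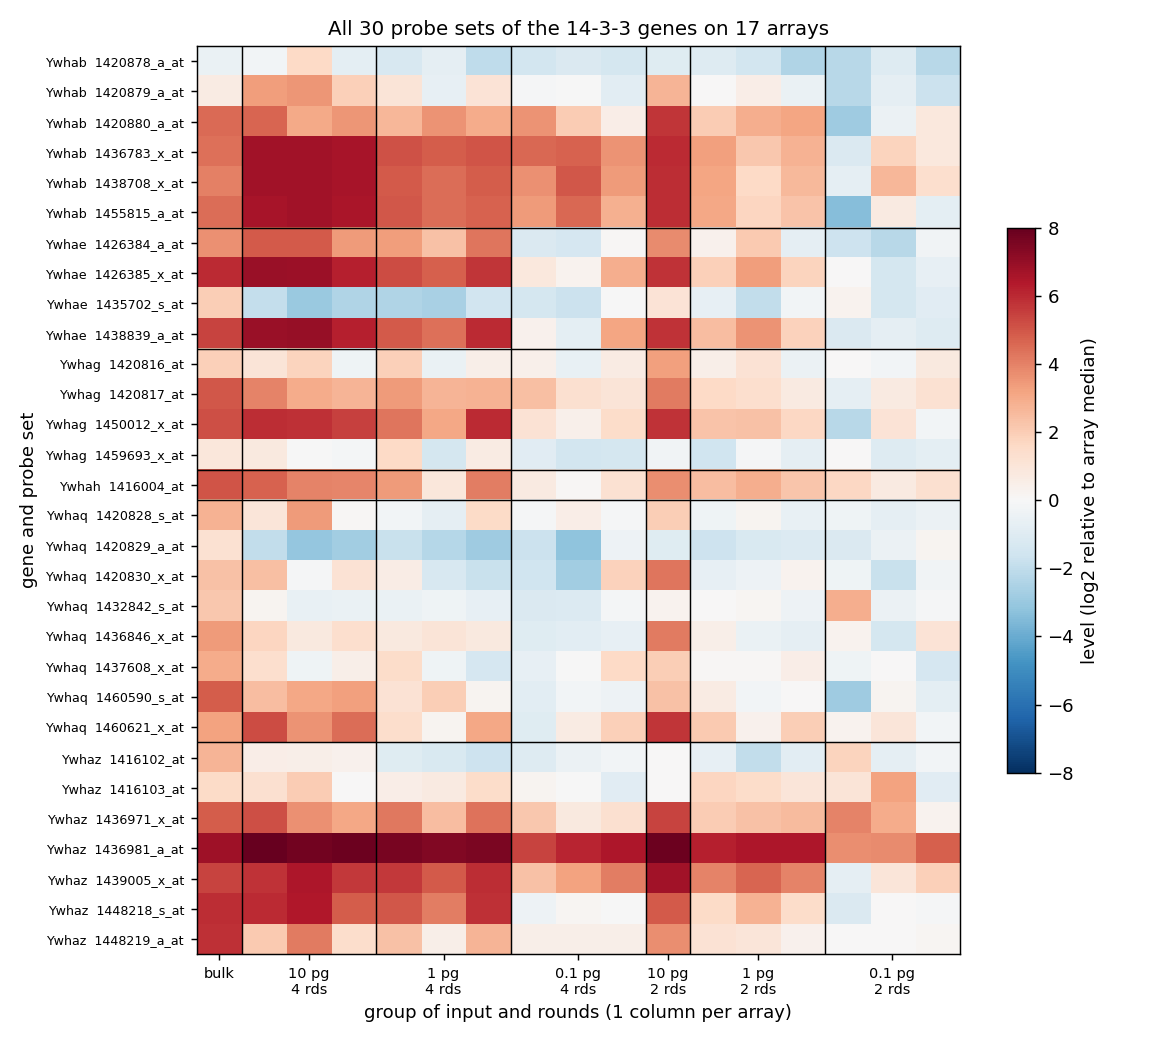
Heat map of the 30 probe sets of the 14-3-3 genes (rows, by gene) on the 17 arrays (columns, by group of input and rounds, rds is rounds). Colour is the log2 level relative to the array median, red above and blue below. The bulk column holds 14 probe sets among the array's top 5% and the arrays of 0.1 pg after 2 rounds hold 0 or 1.

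The first comparison is between inputs after 4 rounds of amplification. After 4 rounds, every 14-3-3 gene was lower at 0.1 pg than at 10 pg by at least 1 probe set. limma called 15 of the 30 probe sets lower and 0 higher at an adjusted p under 0.05. Of all probe sets, 4.83% were called lower and 8.86% in either direction. All 15 were among the 24 members with a mean level at or above the array median, and of the 6 below it 0 were called. In a fit of only the probe sets at or above the median, 1850 of 22062 were called lower and 3701 in either direction. The estimate was negative for 28 of 30, with a median of -2.10 on the log2 scale against 0.10 over all probe sets. The arrays of both groups did not overlap for 22 of the 30, as for 40.3% of all probe sets. By the representative probe sets 6 of 6 genes were lower, with a median of -3.70 against 0.13 over all genes, of which 9.97% were called.

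Ywhae showed the largest fall of the 6 representatives. Its mean level was 6.66 ± 0.365 (SD, n = 3) at 10 pg and 1.34 ± 1.37 (n = 3) at 0.1 pg, a log2 difference of -5.32 (SE 0.626) or 40.1-fold (limma, adjusted p = 0.000155). Its probe sets 1438839_a_at and 1426384_a_at, whose probes belong to this gene alone, fell by 5.80 and 5.21. The fourth, 1435702_s_at, went the other way at 1.38 higher, which limma did not call (adjusted p = 0.160). On that probe set the 10 pg arrays read -1.90, -2.98 and -2.43 and bulk read 1.95, so the probe sets of Ywhae disagree.

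Ywhag fell by 4.74 on the log2 scale (SE 0.739), from 5.74 ± 0.229 to 0.99 ± 0.550 (SD, n = 3 each, limma, adjusted p = 0.00111). Only this _x_at probe set of its 4 was called. The _at probe sets 1420817_at and 1420816_at had estimates of -1.65 (adjusted p = 0.0732) and -0.65 (0.574). Ywhah fell by 3.53 (SE 0.643), from 4.20 ± 0.439 to 0.67 ± 0.586 (n = 3 each, limma, adjusted p = 0.00321), the only called member with an _at probe set.

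Ywhaq fell by 3.87 (SE 0.777), from 4.40 ± 0.807 to 0.53 ± 1.42 (SD, n = 3 each, limma, adjusted p = 0.00598), and 3 of its 8 probe sets were lower. Ywhab fell by 2.36 (SE 0.596), from 6.68 ± 0.0969 to 4.31 ± 0.621 (limma, adjusted p = 0.0215), and 4 of its 6 probe sets were lower. Ywhaz had the smallest fall of the 6 representatives, 1.83 (SE 0.411), from 7.84 ± 0.101 to 6.00 ± 0.534 (limma, adjusted p = 0.0113). Another Ywhaz probe set, 1448218_s_at, had the largest estimate of all 30. It read 5.97, 6.42 and 4.87 at 10 pg and -0.39, 0.19 and -0.03 at 0.1 pg, a fall of 5.83 (SE 0.560, limma, adjusted p = 4.48e-05). Its 0.1 pg arrays sat at about the array median, and the files hold no detection call, so the size of this fall is that of the scaled signal alone. The 3 called Ywhaz probe sets ranged from -5.83 to -1.83 for 1 gene.

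**Figure D3:**
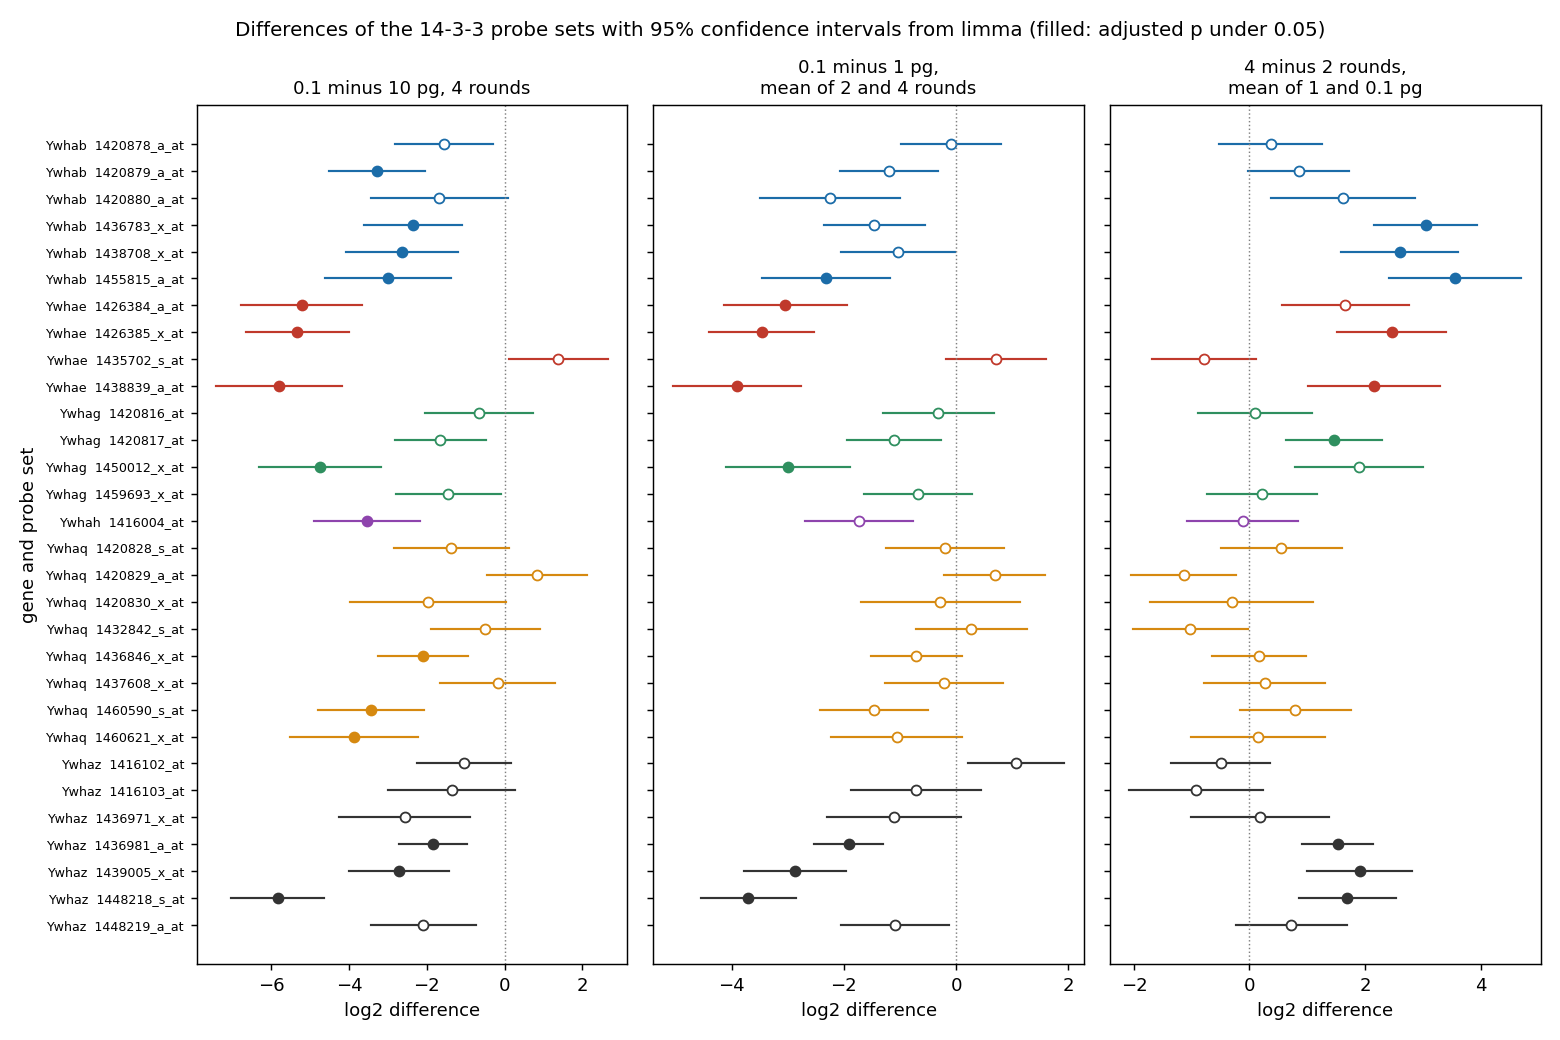
Log2 difference (x axis) of each of the 30 probe sets (y axis, by gene) in 3 comparisons, with 95% confidence intervals from limma. Filled points passed an adjusted p under 0.05, which holds for 15 probe sets at 0.1 against 10 pg, 8 at 0.1 against 1 pg and 9 at 4 against 2 rounds.

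By suffix, 5 of 9 _a_at, 1 of 5 _at, 2 of 5 _s_at and 7 of 11 _x_at probe sets were lower. Leaving out 1 array of either group at a time gave 9 to 16 called probe sets, and 9 of the 15 were called in each of these fits. The lowest count was without array 1 of 0.1 pg. Ywhab lost its call by 1436783_x_at without array 1 or 2 of 10 pg (limma, adjusted p = 0.0789 and 0.0694) and without array 1 or 3 of 0.1 pg (0.0532 and 0.0820). Ywhaz lost its call by 1436981_a_at without array 1 of 10 pg (0.0550) or array 1 of 0.1 pg (0.0732). The other 4 that lost their call in some of these fits were 1438708_x_at and 1455815_a_at of Ywhab, 1436846_x_at of Ywhaq and 1439005_x_at of Ywhaz. The methods' false discovery rate of 0.1% left 4 probe sets, 3 of Ywhae and 1448218_s_at of Ywhaz, where it left 0.653% of all probe sets. The methods' t-test left 6, where it called 3.51% of all. They were 1426384_a_at of Ywhae, 1450012_x_at of Ywhag, 1416004_at of Ywhah, 1460590_s_at and 1436846_x_at of Ywhaq and 1448218_s_at of Ywhaz. By the representatives that is 2 of the 6 genes, and Ywhab had no call by that test.

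Other measures moved between the same groups. The mean level of 7 neuron markers was 3.97 to 4.68 on the arrays of 10 pg after 4 rounds and 1.97 to 2.59 on those of 0.1 pg, and limma called 3 of the 7 lower. The 5 astrocyte markers averaged 0.41 to 1.45 at 10 pg and 1.32 to 1.67 at 0.1 pg with none called. The 4 oligodendrocyte markers averaged -0.23 to 0.59 at 10 pg and 1.17 to 1.26 at 0.1 pg with 1 called higher. The 3 vascular markers averaged -0.18 to 0.97 at 10 pg and -0.87 to -0.61 at 0.1 pg, the 4 microglia markers 2.45 to 2.83 and 2.17 to 2.72, the 3 choroid plexus markers -0.75 to 0.09 and -0.22 to -0.01, and the 5 markers of other tissues -0.34 to -0.19 and 0.02 to 0.19, with none of these called. The signal of 3′ over 5′ control probe sets of beta-actin was 1.13 ± 0.551 (log2, SD, n = 3) at 10 pg and -0.81 ± 0.156 at 0.1 pg. That of Gapdh was 4.73 ± 0.207 and 3.71 ± 0.0292, and that of the transferrin receptor was 4.74 ± 0.183 and 6.62 ± 0.769. The part of any of these in the 14-3-3 differences was not tested. The groups are aliquots of 1 RNA and do not differ in the cells sampled. In the tissue RNA itself fewer cells of a type and less RNA per cell cannot be told apart.

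Between 10 and 1 pg after 4 rounds, limma called none of the 30 probe sets, where 0.657% of all probe sets were called. At an unadjusted p under 0.05 there were 11, where 9.51% of all probe sets lay, and the smallest adjusted p was 0.0730. The estimate was negative for 27 of 30 with a median of -0.93, against 0.05 over all probe sets. The representative of Ywhaq had -2.84 (95% interval -4.49 to -1.20, adjusted p = 0.135), Ywhab -1.67 (-2.94 to -0.41) and Ywhae -1.43 (-2.75 to -0.10). The interval of Ywhaz, -1.19 to 0.55 about an estimate of -0.32, bounds its difference more closely. Without array 3 of 10 pg 1 probe set of Ywhab (1420879_a_at, -2.95, limma, adjusted p = 0.0364) was called, and without array 3 of 1 pg that of Ywhaq was called (-3.60, adjusted p = 0.0491).

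By their representatives, Ywhae, Ywhag and Ywhaz were lower at 0.1 than at 1 pg, averaged over 2 and 4 rounds. limma called 8 of 30 probe sets lower and 0 higher, where 0.986% of all probe sets were called lower, 1.24% in either direction and, by representatives, 1.5% of genes. The estimate was negative for 26 of 30, with a median of -1.09 against 0.05 over all probe sets. Ywhae fell by 3.46 (SE 0.443, limma, adjusted p = 0.000850) and 3 of its 4 probe sets were lower. Ywhag fell by 3.0 (SE 0.523, limma, adjusted p = 0.00830), and only this _x_at probe set of its 4 was called. The median estimate of the 4 was -0.89 and the highest -0.32. By the mean of its probe sets Ywhag was not called. Ywhaz fell by 1.91 (SE 0.291, limma, adjusted p = 0.00302), with 3 of 7 probe sets lower.

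The other 3 genes did not pass by their representatives in this step. Ywhah had an estimate of -1.73 (95% interval -2.69 to -0.76, limma, adjusted p = 0.0781), Ywhab -1.45 (-2.35 to -0.56; 0.108) and Ywhaq -1.06 (-2.22 to 0.10; 0.384). Ywhah passed without array 2 of 1 pg after 4 rounds, which read 0.91 against 3.42 and 4.10 on the other arrays (-2.20, adjusted p = 0.00361). Ywhab passed by its representative without array 2 of 0.1 pg after 2 rounds (-1.77, adjusted p = 0.0320). The called Ywhab probe set, 1455815_a_at (-2.32, adjusted p = 0.0454), lost its call without any one of the 9 arrays of 1 pg or of 0.1 pg after 4 rounds, with adjusted p from 0.0522 to 0.114.

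Taken within each number of rounds, the fall of Ywhae held at both, -3.03 after 2 rounds (limma, adjusted p = 0.0300) and -3.90 after 4 (0.00482). Ywhag had -2.54 after 2 rounds (0.0910) and -3.46 after 4 (0.0212). Ywhaz had -2.31 after 2 rounds (0.0197) and -1.51 after 4 (0.0588). The comparison after 2 rounds alone called 7 probe sets, where 1.56% of all were called, and that after 4 rounds alone 5, where 2.77% were called.

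More rounds went with higher Ywhab. For the average of 1 and 0.1 pg, limma called 9 of 30 probe sets higher after 4 than after 2 rounds and 0 lower, where 1.99% of all probe sets were called higher, 3.91% in either direction and, by representatives, 4.27% of genes. The estimate was positive for 23 of 30, with a median of 0.63 against -0.05 over all probe sets. Ywhab rose by 3.05 (SE 0.421, 8.28-fold, limma, adjusted p = 0.00176), and every array after 4 rounds, from 3.60 to 5.10, was above every array after 2 rounds, from -1.15 to 3.26. It was higher at each input, by 2.29 at 1 pg (adjusted p = 0.0451) and by 3.81 at 0.1 pg (0.00442), and 3 of its 6 probe sets rose.

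By their representatives, Ywhae rose by 2.46 (SE 0.443, limma, adjusted p = 0.00889) and Ywhaz by 1.53 (SE 0.291, adjusted p = 0.0116). Of the Ywhae probe sets 2 of 4 were called, with estimates from -0.79 to 2.46. Of the Ywhaz probe sets 3 of 7 were called, with estimates from -0.92 to 1.90. By the mean of a gene's probe sets neither gene was called. At single inputs Ywhae was called at 1 pg (2.89, adjusted p = 0.0219) and not at 0.1 pg (2.03, 0.0834), and Ywhaz at 0.1 pg (1.93, 0.0215) and not at 1 pg (1.13, 0.122). Ywhag had 1.89 by its representative (adjusted p = 0.0532), which passed without array 2 of 0.1 pg after 2 rounds (2.28, 0.0192) or array 2 of 1 pg after 4 rounds (2.23, 0.0229). Its probe set 1420817_at was called at 1.46 (adjusted p = 0.0485).

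Ywhah and Ywhaq had estimates near 0 for the change of rounds. Ywhah had -0.12 (95% interval -1.08 to 0.84, limma, adjusted p = 0.909) and Ywhaq 0.14 (-1.02 to 1.31; 0.908), so changes of about 1 log2 unit in either direction lie within or at the edge of the intervals. Leaving out 1 array at a time gave 5 to 11 called probe sets. The count was 5 without array 1 or 3 of 1 pg after 2 rounds, array 1 or 3 of 1 pg after 4 rounds, or array 3 of 0.1 pg after 4 rounds, and 5 of the 9 were called in each fit. The other 4 were 1420817_at of Ywhag, 1438839_a_at of Ywhae, and 1439005_x_at and 1448218_s_at of Ywhaz, which lost their calls in 6 to 10 of the fits each, with adjusted p from just above the threshold to 0.117. The comparison at 1 pg alone called 4 probe sets, where 3.55% of all were called, and that at 0.1 pg alone 5, where 3.15% were called.

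Whether the change of rounds differed between 0.1 and 1 pg was tested as an interaction. limma called none of the 30 probe sets, where 3.59% of all probe sets were called, with 4 at an unadjusted p under 0.05, where 20.9% of all probe sets lay. The smallest adjusted p was 0.0651, for Ywhaz 1448218_s_at with an estimate of -2.73. That probe set rose from 1.53, 2.79 and 1.45 to 4.98, 4.11 and 5.85 at 1 pg, and read -1.15, 0.00 and -0.07 after 2 rounds and -0.39, 0.19 and -0.03 after 4 rounds at 0.1 pg. With all arrays it passed with the deposited values (limma, adjusted p = 0.0429), median centering alone (0.0467) and quantile normalization (0.0472). It also passed without probe sets below the median (limma, adjusted p = 0.0486). Among the fits that left out 1 array, it passed without array 2 of 1 pg after 4 rounds (-3.17, limma, adjusted p = 0.0317). It passed too without array 1 of 0.1 pg after 2 rounds (-3.10, adjusted p = 0.0438). Without array 2 or array 3 of 0.1 pg after 2 rounds, 1436846_x_at of Ywhaq (-2.66, adjusted p = 0.0311) and 1436971_x_at of Ywhaz (-3.42, adjusted p = 0.0364) passed instead. In the main fit the single differences above that passed at 1 input and not at the other are therefore not shown to differ between inputs.

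Against the unamplified RNA, amplified aliquots stood below it for most 14-3-3 probe sets. The mean of the 6 amplified groups was below bulk for 28 of 30, with a median of -2.04 against 0.10 over all probe sets. limma called 4 probe sets lower and 0 higher, where 1.03% of all probe sets were called lower, 1.1% in either direction and, by representatives, 0.819% of genes. Bulk is 1 array, and its spread is assumed to equal that of the other groups. The called ones were 1448219_a_at (-4.29, SE 0.812, limma, adjusted p = 0.0171), 1416102_at (-3.12; 0.0491) and 1448218_s_at (-3.08; 0.0474) of Ywhaz and 1460590_s_at of Ywhaq (-4.01; 0.0261).

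For 1448219_a_at of Ywhaz, bulk read 5.87 and the highest of the 16 amplified arrays read 4.17, so bulk stood apart. For 1460590_s_at of Ywhaq, bulk read 4.83 and the highest amplified array 3.30. No representative was called, with estimates of -2.54 for Ywhae (adjusted p = 0.150), -2.50 for Ywhah (0.172), -2.07 for Ywhag, -0.86 for Ywhaq, -0.19 for Ywhab and -0.15 for Ywhaz. Ywhah was nevertheless below bulk on each of the 16 amplified arrays. Leaving out 1 array at a time gave 2 to 7 called probe sets, 2 without array 1 or 3 of 1 pg after 2 rounds, array 1 or 3 of 10 pg after 4 rounds, array 1 of 1 pg after 4 rounds, or array 1 or 2 of 0.1 pg after 4 rounds, and 7 without array 1 of 0.1 pg after 2 rounds. The calls of 1460590_s_at and 1448219_a_at held in each of these fits, and those of 1416102_at and 1448218_s_at were lost in 12 and 8 of them, with adjusted p of 0.0516 to 0.0744. The average without the single array of 10 pg after 2 rounds also called 7.

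**Figure D4:**
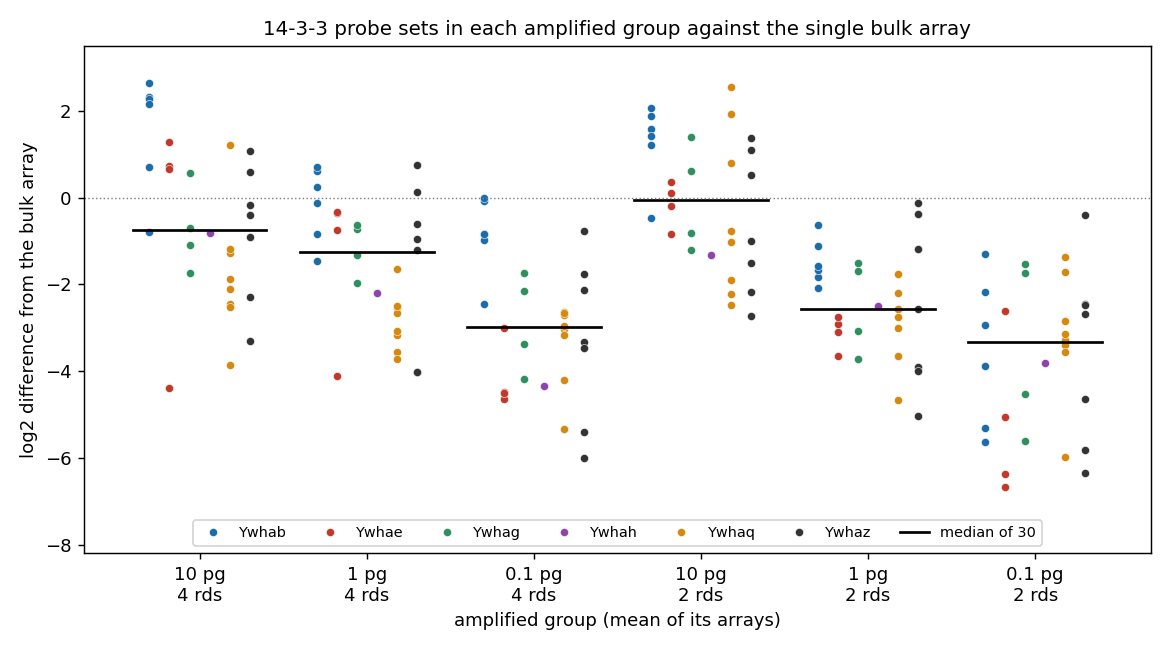
Difference of each amplified group's mean from the single bulk array (y axis, log2) for the 30 probe sets, by group of input and rounds (x axis, rds is rounds) and coloured by gene. The black line is the median of the 30, which is -0.05 and -0.74 at 10 pg and -3.33 and -2.98 at 0.1 pg after 2 and 4 rounds.

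Group by group the distance from bulk grew as input fell. At 10 pg the members were split, 15 above and 15 below bulk after 2 rounds (median difference -0.05) and 12 above and 18 below after 4 rounds (median -0.74). At 1 pg the median was -1.25 after 4 rounds, with 25 of 30 below bulk, and -2.57 after 2 rounds, with 30 of 30 below. At 0.1 pg all 30 were below bulk after either number of rounds, with medians of -2.98 after 4 and -3.33 after 2. The medians over all probe sets lay between -0.01 and 0.14, where the centering of each array holds them near 0. These are descriptions against 1 array.

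The share of 14-3-3 probe sets among the most strongly detected moved alike. Of the 30, 14 were in the top 5% of the bulk array and 12 on the array of 10 pg after 2 rounds. After 4 rounds there were 14, 10 and 10 at 10 pg, 8, 7 and 9 at 1 pg, and 2, 4 and 1 at 0.1 pg. After 2 rounds there were 1, 2 and 1 at 1 pg and 0, 0 and 1 at 0.1 pg. No array of 0.1 pg reached the count of any 1 pg array after 4 rounds.

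Over all 30 probe sets the spread between amplifications was about equal to or above that of the array as a whole. Over the representatives it was above in some groups and below in others. The median SD over the 30 probe sets after 4 rounds was 0.555 for 10 pg, against 0.418 over all probe sets, 0.735 for 1 pg, against 0.525, and 0.637 for 0.1 pg, against 0.438. After 2 rounds it was 0.540 at 1 pg and 0.850 at 0.1 pg, against 0.496 and 0.844. Over the 6 representatives the median SD was below that of all probe sets in 3 of the 5 groups, with 0.464 at 1 pg and 0.652 at 0.1 pg after the shorter protocol and 0.297 at 10 pg after the longer one. It was above that of all probe sets in the 4-round groups of 1 pg, at 0.954, and of 0.1 pg, at 0.603.

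The deposited values are coarse on some arrays. The bulk array holds 3771 distinct values, and the array of 10 pg after 2 rounds holds 872, with 29 members sharing their value. The arrays of 0.1 pg after 2 rounds hold 1258, 1577 and 2102. On those last 3 arrays all 30 members shared their exact value with other probe sets, a median of 3344, 2376 and 972 probe sets at a member's value, against 2 on the bulk array. On the first 2 of them 4 and 3 members sat exactly at the array median. Low readings on these arrays thus took few distinct values. Ties also lay in the comparison of 0.1 with 10 pg after 4 rounds. On the arrays of 0.1 pg 26, 28 and 28 members shared a value, with a median of 168, 94 and 159 probe sets at it. On the arrays of 10 pg 21, 22 and 22 members did, with a median of 6, 7 and 6.

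Sfn, the family's epithelial form, had group means of 0.31 to 1.69, all above the array median, and no call in any of the 6 comparisons. It read 1.66 in bulk and 1.42 at 10 pg after 2 rounds. Its group means after 4 rounds were 1.42 ± 0.204 at 10 pg, 1.69 ± 0.0927 at 1 pg and 0.92 ± 0.149 at 0.1 pg (SD, n = 3 each).

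The known clients and partners of 14-3-3 proteins, a list of 41 genes with Sfn, could be read for 39, of which 33 had a mean level at or above the array median. At 0.1 against 10 pg after 4 rounds limma called 5 of 39 lower and 0 higher. Taken in either direction that share is near the 9.97% of all genes called. All 5 were lower, where 4.83% of all probe sets were called lower. The list's median was 0.00 against 0.13 over all genes. Nedd4l, a ubiquitin ligase that 14-3-3 binding holds back from sodium channels, fell by 4.41 (adjusted p = 0.00162). Bad, the death promoter that 14-3-3 keeps from mitochondria when phosphorylated, fell by 3.43 (0.00860). Bcr, a serine and threonine kinase, fell by 3.39 (0.00517) and Ndel1, a dynein regulator that epsilon shields, by 2.48 (0.0366). The fifth, Arhgef2, a microtubule-bound protein, was read by an _s_at probe set and fell by 2.23 (0.0433).

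The remaining comparisons called at most 1 of the 39. limma called 0 at 1 against 10 pg after 4 rounds, where 0.654% of genes were called, with 6 at an unadjusted p under 0.05, where 9.87% of genes lay. At 0.1 against 1 pg it called 0, with 7 unadjusted, where 15.6% of genes lay, and for the amplified groups against bulk 0, with 8 unadjusted, where 13.4% lay. Between 4 and 2 rounds Irs2, an adaptor of the insulin receptor, fell by 1.16 (adjusted p = 0.0409), 1 of 39 where 4.27% of genes were called. Kcnk3, a two-pore potassium channel whose surface transport uses 14-3-3, was called in the interaction of rounds and input (2.42, adjusted p = 0.0376), 1 of 39 where 4% of genes were called.

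Among 11836 genes compared by their representative probe sets, the patterns most like each member over the 17 arrays were strongly correlated with it. The points share 1 RNA and the same arrays, so the correlations are descriptions. Ywhaz was closest to Snap25 (Pearson r = 0.980), a synaptic SNARE protein, and Basp1 (0.960). Ywhag was closest to Morf4l2 (0.985) and Rgs4 (0.971), a regulator of G protein signalling. Ywhae was closest to Jund (0.976), an AP-1 transcription factor, and to a probe set annotated as Sry (0.969), a Y-linked gene that the labelled female animal does not carry. Ywhab was closest to Trim2 (0.953), Ywhah to Nsg2 (0.952) and Ywhaq to Hexa (0.920).

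The mean of the 6 representatives was closest to Sod1 (0.980), the cytosolic superoxide dismutase, followed by Rgs4 (0.975) and Strbp (0.965). Among the 15 pairs of members r ran from 0.512, between Ywhab and Ywhah, to 0.924, between Ywhae and Ywhag, with a median of 0.801. A member's median r to all compared genes lay between -0.13 and -0.09.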

How the data were processed

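The authors summarised probe intensities with RMA 2.0 (the version is from the submitters' processing notes) and an upper decile statistic, and deposited 1 table of log2 values for 17 arrays. The genome build of the annotation is not given in the sources used here. Values ran from 1.56 to 15.8 with array medians of 5.64 to 6.01, so the centering that the methods describe was not in the deposited log2 values and was applied here: the median of an array was subtracted from its values, which were then divided by the distance between its 10th and 90th percentiles (4.22 to 4.97) and multiplied by the mean range (4.63). Of 45101 probe sets, 64 controls were left out. The other 45037 carried 1 symbol (34945), several (932) or none (9160) in the platform annotation, and the 30 member symbols matched RefSeq by gene ID. No 2 arrays shared more than 0.926% identical values by probe set.

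Groups came from the sample titles. A model of 7 group means over the 17 arrays was fitted with limma 3.58.1 in R 4.3.3 (lmFit, contrasts, eBayes, total 16.4 degrees of freedom). Benjamini-Hochberg adjustment ran over 45037 probe sets, with a threshold of 0.05. The model takes 1 spread per probe set for all groups, although the median SD over all probe sets ran from 0.418 to 0.844 by group. The code was run on simulated data with equal spread in all groups and no ties. That run does not cover the unequal spread and the ties of these arrays. The methods' t-test was run as an alternative, not as the main test, because groups hold 3 or 1 arrays. Python 3.11.15, pandas 2.3.3, numpy 2.4.6 and matplotlib 3.10.9 made descriptions and figures.

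Genes named in the text are the members, the partners called in a comparison (at most the 4 with the largest change, to which Arhgef2 was added after its value was seen because it completes a count of 5), Sfn, and the 2 genes per member and 5 genes for the mean of the 6 with the highest Pearson r. Not every one of these is printed. The members and gene lists were chosen with earlier results of these data known. Comparisons within 1 number of rounds or 1 input were added after seeing the data.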

Additional observations from a re-analysis of the deposited data

How the results depend on the processing

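Each count of called 14-3-3 probe sets was recomputed with other scalings, filters, tests and samples. Shares over all probe sets depend on level. Of the 22062 with a mean level at or above the array median, fitted alone, 571 were called lower at 0.1 against 1 pg. In that fit 853 were called higher at 4 against 2 rounds and 243 lower for the amplified groups against bulk. At 0.1 against 10 pg after 4 rounds the 15 became 4 at the methods' false discovery rate of 0.1% and 6 with the methods' t-test. Over all 45037 probe sets these left 294 and 1580. When 1 array was left out the 15 became 9 to 16. At 1 against 10 pg the 0 became 0 to 1 when 1 array was left out. At 0.1 against 1 pg the 8 became 2 at the rate of 0.1% and 0 with the t-test. Over all 45037 probe sets these left 34 and 0, so the t-test called no probe set of any gene. That t-test pooled arrays of 2 and 4 rounds without a term for rounds, so differences between rounds entered its spread. The 8 became 5 after 4 rounds alone and 7 to 10 when 1 array was left out. At 4 against 2 rounds the 9 became 0 at the rate of 0.1% and 0 with the t-test. Over all 45037 probe sets these left only 20 and 3. The t-test here pooled arrays of 1 and 0.1 pg in the same way, so differences between inputs entered its spread. The 9 became 4 at 1 pg alone, 5 at 0.1 pg alone and 5 to 11 when 1 array was left out. For the amplified groups against bulk the 4 became 0 at the rate of 0.1%, 7 with median centering alone, 7 without the array of 10 pg after 2 rounds and 2 to 7 when 1 array was left out. For the interaction the 0 became 1 with the deposited values, with median centering alone, with quantile normalization and without probe sets below the median, and 0 to 1 when 1 array was left out. The t-test was not run for bulk, which has 1 array, or for the interaction. Fitted to the compared groups alone, limma called 8094 of all probe sets at 0.1 against 10 pg (main fit 3992). It called 374 at 0.1 against 1 pg (main fit 559) and 853 at 4 against 2 rounds (main fit 1759). Among members this added 1436971_x_at and 1459693_x_at at 0.1 against 10 pg. It lost 1455815_a_at at 0.1 against 1 pg, and 1420817_at and 1438839_a_at at 4 against 2 rounds.

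Replicate numbers did not pair the samples: deviations of same-numbered arrays had a mean correlation of -0.00714 over 30 pairs. With the replicate number as a replicate block the counts were 16, 0, 7, 7, 1 and 0 in the order of comparisons above.

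Of the recomputed differences of the representatives, 689 kept direction and side of the threshold, 33 lost the call, 11 gained it and 17 changed sign, none of these called. For 4 against 2 rounds Ywhah (-0.12) was 0.30 at 1 pg alone and -0.44 to 0.36 when 1 array was left out, positive without array 2 of 1 or of 0.1 pg after 4 rounds. Ywhaq (0.14) was -0.068 by the mean of its probe sets and -0.24 to 0.51 when 1 array was left out, negative without array 2 of 1 pg or 3 of 0.1 pg after 2 rounds or array 3 of either after 4 rounds. In the interaction Ywhaq (0.06) was -0.034 with quantile normalization, -0.22 by the mean of its probe sets and -0.62 to 0.82 when 1 array was left out, and Ywhaz (0.80) was -0.76 by the mean of its probe sets. The cause was not tested. By the mean of all probe sets of a gene, Ywhaq (-2.40) and Ywhaz (-2.02) were called lower than bulk, and Ywhag lost its call at 0.1 against 1 pg (-1.28) and Ywhae and Ywhaz theirs at 4 against 2 rounds (1.37 and 0.66).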
